A study of Mus musculus with 34 samples.

Results

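The genes described here encode the matrix metalloproteinases (Mmp), the related Adamts proteases and Adamts-like proteins, and the tissue inhibitors of metalloproteinases (Timp). The members were taken by name, as every symbol that starts with Mmp, Adamts, Adamtsl, or Timp followed by a digit. This rule uses no measured value, but the family itself was chosen with earlier results of these data known. Of 51 such mouse genes, 49 had a transcript in the deposited RNA-Seq data, among 23109 genes in all. These were 22 Mmp genes, 19 Adamts genes, 4 Adamtsl genes, and 4 Timp genes, and each gene was represented by its RefSeq transcript with the highest mean level. No transcript was matched to *Mmp27* or *Adamtsl5*.

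The 14 RNA-Seq libraries came from brown preadipocytes, isolated from the interscapular brown fat of newborn mice and immortalized with SV40T. In the first experiment, cells carrying retroviral WT or K36M mutant histone H3.3 were sampled on 3 days of adipogenesis, the conversion of preadipocytes to fat cells, at its start (D0) and 2 (D2) and 7 (D7) days later. The K36M mutant depletes methylation of histone H3 at lysine 36. The inducing medium held insulin, T3, IBMX, dexamethasone, and indomethacin for 2 days, and insulin and T3 remained thereafter. In the second experiment, sub-confluent WT and K36M cells that also carried retroviral PPARγ, the master transcription factor of adipogenesis, received DMSO or its ligand rosiglitazone (Rosi). The labels give 0 h for DMSO and 24 h for Rosi, whereas the study describes the same duration for both. If the labels hold, the ligand and the time in culture cannot be told apart. In the third experiment, lentiviral Ctrl or *Nsd2* KD shRNA was expressed and cells were collected at D0 and D2. The labels describe cells with a floxed glucocorticoid receptor gene that received Vec or Cre, without saying which went to these libraries, and do not say which *Nsd2* shRNA was used. Each condition had 1 library, so no difference between conditions was tested and none has a replicate check.

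Matrix metalloproteinases are zinc-dependent proteases that cut collagens and other extracellular matrix proteins, either secreted or tethered to the cell surface by a membrane anchor. ADAMTS proteases carry thrombospondin repeats that hold them in the matrix, where they cut proteoglycans such as versican or trim procollagens, and ADAMTS-like proteins share these repeats but lack the protease domain. TIMPs bind the active site of these proteases and inhibit them. In fat, the fibrous matrix laid down by preadipocytes is remodelled as the cells round up and fill with lipid.

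Levels were given as RPKM, a read number corrected for transcript length and sequencing depth, so that levels can be compared between genes of different length. Of the 49 genes, 23 reached an RPKM of 5 in 1 library or more, 8 peaked between 1 and 5, and 18 never reached 1. The most abundant were *Mmp14* (up to 260.0 in K36M cells at D7), *Timp1* (up to 239.7 in the same library), *Timp2* (up to 211 in WT cells at D0), and *Timp3* (up to 189 in the same library). The 24 genes with a mean RPKM of at least 1 over the 14 libraries, which are those 23 and *Mmp24*, were compared between libraries. Just inside that limit, *Adamts15* had a mean of 1.83, and just outside it, *Mmp17* had a mean of 0.949. All gene positions given below are from the GENCODE M1 annotation of mm9.

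**Figure D1:**
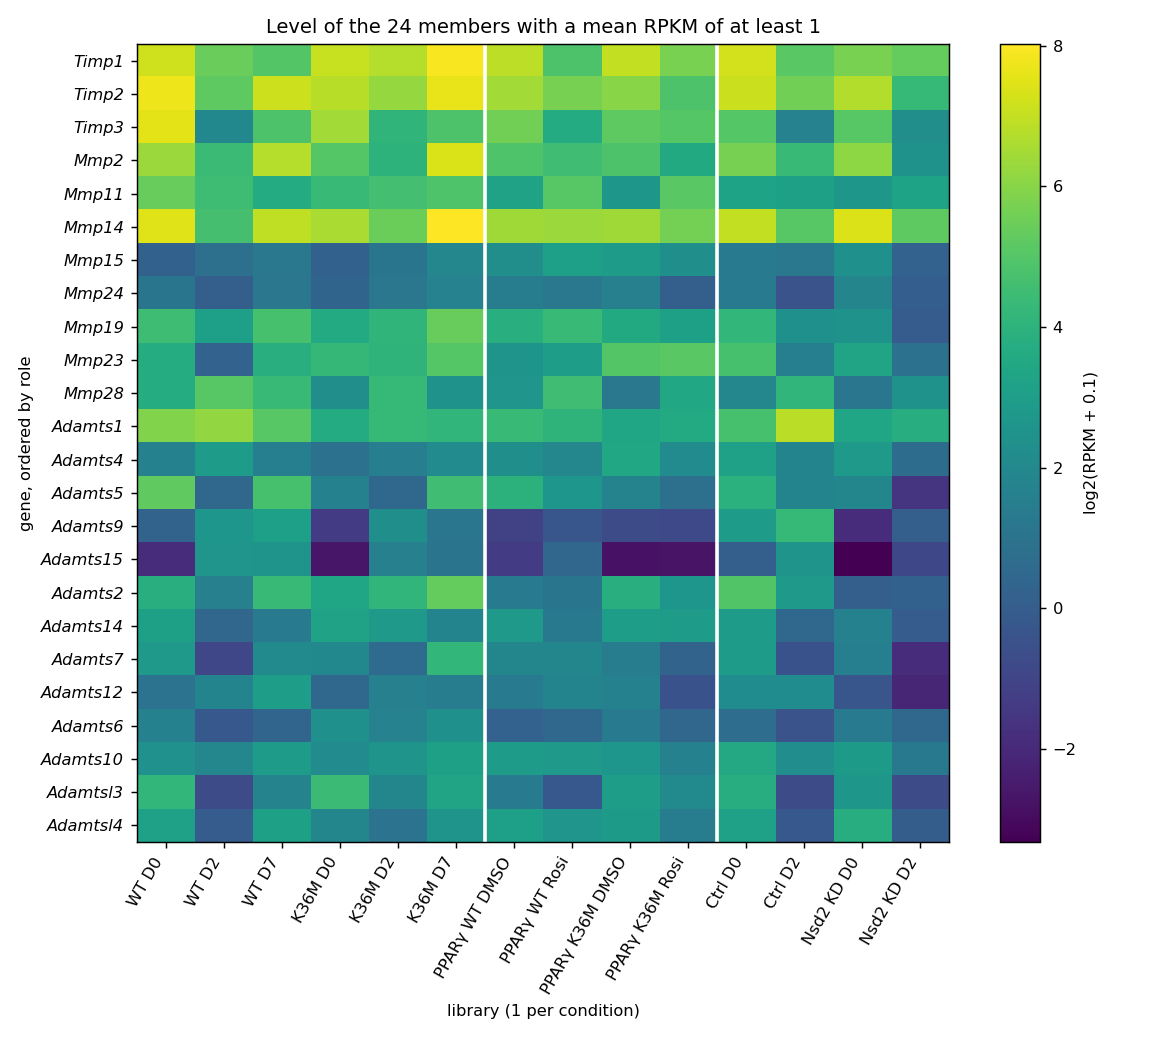
Colour shows log2(RPKM + 0.1) of each of the 24 genes (rows, ordered from the inhibitors through the Mmp genes to the Adamts and Adamtsl genes) in each of the 14 libraries (columns), and white lines separate the 3 experiments. *Timp1*, *Timp2*, *Mmp14*, and *Mmp2* are bright in nearly every column, and the darkest cell is *Adamts15* at 0 in *Nsd2* KD cells at D0.

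The genes that never reached an RPKM of 1 included most of the Mmp cluster on mouse chromosome 9, in which 9 Mmp genes lie within 427 kb (chr9:7272514-7699585). This cluster holds the interstitial collagenases *Mmp1a*, *Mmp1b*, *Mmp8*, and *Mmp13*, the stromelysins *Mmp3* and *Mmp10*, the metalloelastase *Mmp12*, the matrilysin *Mmp7*, and the enamel protease *Mmp20*. Its highest RPKM was 3.23, of *Mmp3* in K36M cells at D7, and 7 of the 9 genes stayed under 1 in every library. *Mmp3* RPKM was 1.69 (D0), 0.174 (D2), and 0.167 (D7) in WT and 0.280, 0 and 3.23 on these days in K36M cells. *Mmp13* RPKM was 2.69 (D0), 0.137 (D2), and 0.0842 (D7) in WT and 0.791, 0 and 1.16 in K36M cells. Both genes were low at D2 in both populations, low at D7 in WT cells, and above an RPKM of 1 at D7 in K36M cells. *Mmp3* also exceeded 1 in *Nsd2* KD cells at D0, at 2.39, against 0.478 in Ctrl cells on that day. The *Mmp3* values rest on at most 75 reads per library.

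The proximal promoters of this cluster share 2 sequence features. The AP-1 site, the binding sequence of Fos and Jun proteins, was searched as TGAGTCA or TGACTCA, which are each other's reverse complement and so cover both strands, in the RefSeq promoter windows from 250 bases before to 50 bases after each gene start (GRCm38.p6). Of the 34 members with a window, 7 had the site (20.6%), against 5.95% of 27025 genes with a window, and all 7 belong to the cluster of 9. None of the 16 compared members with a window had it. The TATA box, searched as TATAAA on the gene's strand within 50 bases before the gene start, was found in 6 of the 9 cluster genes (66.7%), against 3.15% of all genes and 1 of the 16 compared members (6.25%). A match describes the sequence only. Windows of the 2 cluster genes that exceeded an RPKM of 1 and of *Mmp10*, a neighbour whose highest RPKM was 0.184, are shown 5′ to 3′, with the AP-1 site and the TATA box in capitals:
Mmp13 (chr9:7272264-7272563, plus strand): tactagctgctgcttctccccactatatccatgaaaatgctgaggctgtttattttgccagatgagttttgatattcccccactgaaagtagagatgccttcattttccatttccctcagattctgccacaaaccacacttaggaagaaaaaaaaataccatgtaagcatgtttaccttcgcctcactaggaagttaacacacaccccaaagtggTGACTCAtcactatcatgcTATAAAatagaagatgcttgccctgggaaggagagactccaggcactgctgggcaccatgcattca
Mmp3 (chr9:7445572-7445871, plus strand): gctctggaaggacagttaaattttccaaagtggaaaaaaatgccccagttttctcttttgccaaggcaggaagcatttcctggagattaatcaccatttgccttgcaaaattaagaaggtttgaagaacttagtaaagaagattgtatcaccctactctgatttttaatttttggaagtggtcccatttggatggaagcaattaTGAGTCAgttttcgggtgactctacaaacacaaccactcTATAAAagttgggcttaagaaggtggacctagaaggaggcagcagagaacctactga
Mmp10 (chr9:7502092-7502391, plus strand): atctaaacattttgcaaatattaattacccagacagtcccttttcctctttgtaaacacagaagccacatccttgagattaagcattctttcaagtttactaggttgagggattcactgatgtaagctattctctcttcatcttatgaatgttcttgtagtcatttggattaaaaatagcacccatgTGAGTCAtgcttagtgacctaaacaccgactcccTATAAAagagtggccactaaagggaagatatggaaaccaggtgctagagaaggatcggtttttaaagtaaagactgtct

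The AP-1 site began 35 bases before the gene start in *Mmp13*, 46 in *Mmp3*, and 63 in *Mmp10*. The TATAAA match began 16, 7, and 29 bases before it in these genes, and whether it acts as a TATA box was not tested. The orientation in *Mmp13* was TGACTCA, and it was TGAGTCA in the other 6 genes that had the site. *Mmp3* and *Mmp10* thus had the same 2 motifs in the same orientation and differed in whether reads were found: *Mmp10* was at 0 in 9 of the 14 libraries, *Mmp3* in 3.

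Libraries held 12213559 to 24365867 mapped reads. A gene was called higher or lower when its RPKM ratio exceeded 2-fold, the threshold of the study, and the 95% counting interval of the ratio excluded 1. These intervals come from the whole reads recovered from the RPKM, cover counting error only, and compare libraries rather than conditions. Between the 2 control populations at D0, 13 of the 24 genes were called, 8 higher and 5 lower in Ctrl than in WT cells, against 20.3% of the 11899 genes tested in either direction. At D2 it was 6, 4 higher and 2 lower, against 10.1%, or 4 and 1 after rescaling to the median ratio. These counts were made after the values were seen. They show how far 2 control populations stood apart with neither K36M nor *Nsd2* KD. The 2 populations also differ in the virus they carry, and the labels do not say whether they share Vec or Cre.

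The other cells that a preparation could hold left little RNA. Markers of macrophages and leukocytes summed to RPKM of 0.455 to 8.28 over the 6 of 7 found, 4 of which stayed under 1 everywhere, those of endothelium to at most 2.47, and those of skeletal muscle to at most 3.98. The summed RPKM of 8 adipocyte markers was 264, 5850, and 5461 in WT at D0, D2, and D7 and 92.9, 2116, and 514 in K36M cells. It was 64.5 and 2500 in Ctrl cells at D0 and D2 and 45.6 and 163 in *Nsd2* KD cells. *Ucp1*, the defining gene of brown adipocytes, did not exceed an RPKM of 0.194. *Nsd2* RPKM was 19.9 in Ctrl and 5.85 in *Nsd2* KD cells at D0, and 29.0 and 7.01 at D2.

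During adipogenesis of WT cells, most of these genes were lower at D2 than at D0, and most were higher again at D7. Of the 24, 15 were called lower and 4 higher at D2, 16.1% and 8.47% of the 11899 genes tested being called in these directions, and the median log2 ratio was -1.85 for the 24 and -0.01 for all genes. From D2 to D7, 15 were called higher and 2 lower, against 13.8% and 4.08% of all genes, with medians of 1.19 and 0.03. D2 was the lowest of the 3 days for 15 genes, D7 was the highest for 9, and 13 were lower at D7 than at D0. The order of the days was not counted over all genes. The summed RPKM of the Timp genes was 547, 83.7, and 205 at D0, D2, and D7, and that of the Mmp genes was 354, 116, and 311. Inhibitors therefore outweighed the Mmp genes in transcript level at D0 but not at D2 or D7.

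Ctrl cells, a separately infected population of another experiment, gave the same pattern from D0 to D2, with 17 genes lower and 4 higher, against 15.0% and 10.7% of all genes tested. All 15 genes lower in WT cells were among the 17 of Ctrl cells (88.2%), and *Adamts15*, *Adamts9*, and *Mmp28* were higher in both. In *Nsd2* KD cells 16 genes were lower and 3 higher, against 15.5% and 11.4% (26.9% in either direction), and 14 of these 16 (87.5%) were among the 17 of Ctrl cells (82.4%). In K36M cells 6 genes were lower and 4 higher, against 9.45% and 9.04%, and the median log2 ratio of the 24 was 0.06. These were 12 and 6 with no filter on level and 3 and 3 with a pseudocount of 1. All 6 lower genes were among the 15 of WT cells (40%). With 15 of the 24 genes lower in WT cells and 17 in Ctrl cells, large overlaps arise in any case, and none was tested. In all 4 populations, *Timp3*, *Mmp2*, *Mmp14*, *Adamts5*, *Adamts7*, and *Adamtsl3* were lower at D2, and *Mmp28*, *Adamts9*, and *Adamts15* were higher. The D0 to D2 log2 ratio in K36M cells exceeded that in WT cells, with a 95% counting interval of the difference above 0, for 20 of the 24 genes. It was below it for *Adamts4*, and the interval held 0 for 3, with a median difference of 1.60. These differences were not computed for all genes, so whether the 24 genes stand out in them was not tested.

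Most preadipocyte markers were also lower at D2. The summed RPKM of 8 preadipocyte and fibroblast markers, *Col1a1* and *Pdgfra* among them, was 1791, 408, and 1189 in WT and 1219, 737, and 2014 in K36M cells at D0, D2, and D7. It was 2880 and 383 in Ctrl cells and 1399 and 185 in *Nsd2* KD cells at D0 and D2. All 8 of these markers were called lower at D2 in WT and *Nsd2* KD cells, 7 in Ctrl cells, and 2 in K36M cells. Between populations the markers and the genes did not always go together: at D0 the marker sum was higher in Ctrl than in WT cells, whereas the Timp sum was 324 in Ctrl and 547 in WT cells and the Mmp sum was 242 and 354, and *Dlk1* and *Cd34* were called higher in *Nsd2* KD than in Ctrl cells at D0 while 5 of the 8 markers were called lower. Of 7 adipocyte markers compared, 7 were called higher from D0 to D2 in WT, Ctrl, and K36M cells and 5 in *Nsd2* KD cells. In bulk RNA, fewer cells of a type and less RNA per cell cannot be told apart, and the part of the marker changes in these results was not tested.

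**Figure D2:**
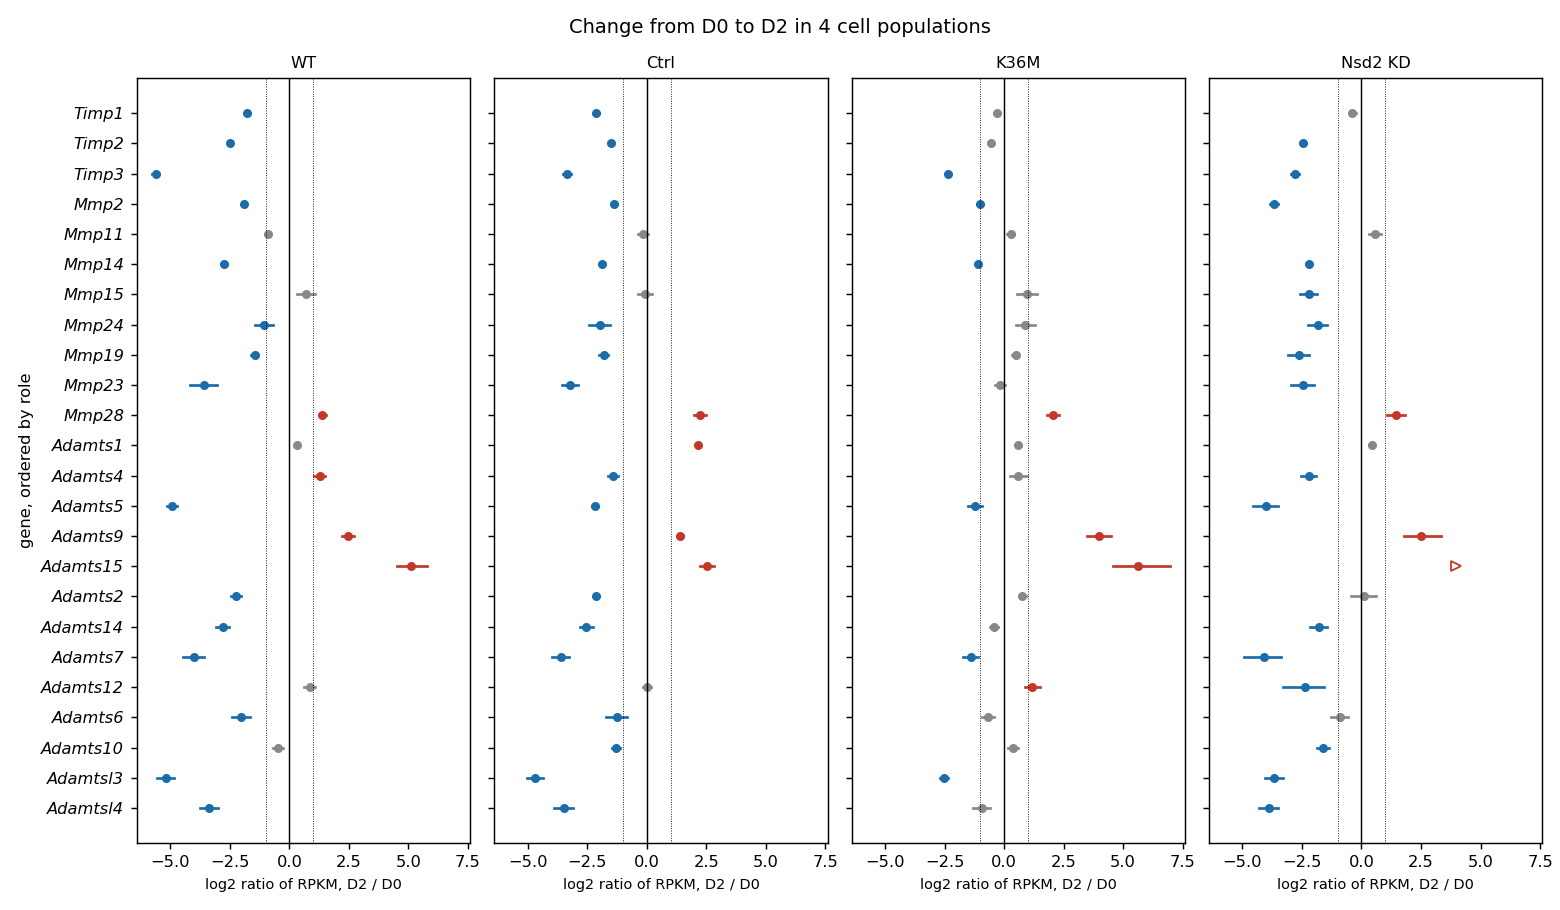
Points give the log2 ratio of RPKM at D2 over D0 for the 24 genes in WT, Ctrl, K36M, and *Nsd2* KD cells, and lines are 95% counting intervals. Red and blue mark genes called higher and lower, grey marks no call, dotted lines mark 2-fold, and the open arrowhead is the lower bound for *Adamts15* in *Nsd2* KD cells, which had no read at D0. Blue points make up 15, 17, 6, and 16 of the 24 in the 4 panels.

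From D2 to D7, K36M cells had 10 of the 24 genes higher and 3 lower, against 13.1% and 5.87% of all genes tested, with medians of 0.82 for the 24 and 0.05 for all genes. In K36M cells D7 was the highest of the 3 days for 15 genes, a count not made over all genes, which also had more higher than lower calls from D2 to D7. The summed Mmp RPKM in these cells was 189, 145, and 550.2, and the summed Timp RPKM was 330.4, 201, and 471. The highest Mmp sum of any library was thus that of K36M cells at D7.

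Against WT cells on the same day, many of these genes were lower in K36M cells at D0 and higher at D2. At D0 none of the 24 was called higher and 9 lower, against 3.33% and 5.40% of all genes tested (8.73% in either direction), with a median log2 ratio of -0.86 (0.09 for all genes). At D2, 12 were higher and 3 lower, against 10.3% and 3.36%, with a median of 0.91 (0.07 for all genes). At D7, 8 were higher and 4 lower, against 9.48% and 6.64%, with a median of 0.55 (0.12 for all genes), and 6 were higher and 5 lower once the libraries were rescaled to the median ratio of all genes. *Nsd2* KD cells differed from Ctrl cells in the lower direction on both days. At D0, 12 genes were lower and only *Mmp15* was higher, against 10.5% and 5.11%, and at D2, 14 were lower and only *Adamts6* was higher, against 9.74% and 4.24%. Medians were -0.82 and -1.09 for the 24 genes and -0.01 and -0.06 for all genes. At D0 the 9 calls of K36M cells were fewer than the 13 between the 2 control populations, and the 13 of *Nsd2* KD cells equalled them. At D2 the 15 calls of K36M cells and the 15 of *Nsd2* KD cells stood against 6 between the controls. These counts depend on the settings. With no filter on level, the counts at D0 were 16 for K36M and 16 between the controls. At D2 they were 18 for K36M, 19 for *Nsd2* KD, and 12 between the controls. With a pseudocount of 1, they were 6 for K36M and 8 between the controls at D0. At D2 they were 9 for K36M, 10 for *Nsd2* KD, and 3 between the controls. These comparisons share control libraries.

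The calls of the 2 perturbations at D2 can be set side by side, although lists of 1 and 3 genes limit how many can be shared. Of the 12 genes higher in K36M cells and the 1 higher in *Nsd2* KD cells, *Adamts6* was shared. *Adamts2*, *Adamts7*, *Mmp19*, and *Timp2* were called in opposite directions, higher in K36M cells and lower in *Nsd2* KD cells. All 3 genes lower in K36M cells, *Adamts1*, *Adamts4*, and *Adamts15*, were among the 14 lower in *Nsd2* KD cells (21.4%). Those 14 are 58.3% of the 24 genes compared, and the overlap was not tested. At D0, *Adamts1*, *Adamts5*, *Adamts9*, and *Adamts15* were lower in both (44.4% of the 9 and 33.3% of the 12). With 12 of the 24 genes lower in *Nsd2* KD cells at D0, an overlap of this size arises in any case, and it was not tested. *Adamts1*, *Adamts2*, *Adamts5*, *Adamts7*, *Adamts9*, *Adamts12*, *Adamts15*, and *Mmp19* were lower in *Nsd2* KD cells on both days.

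**Figure D3:**
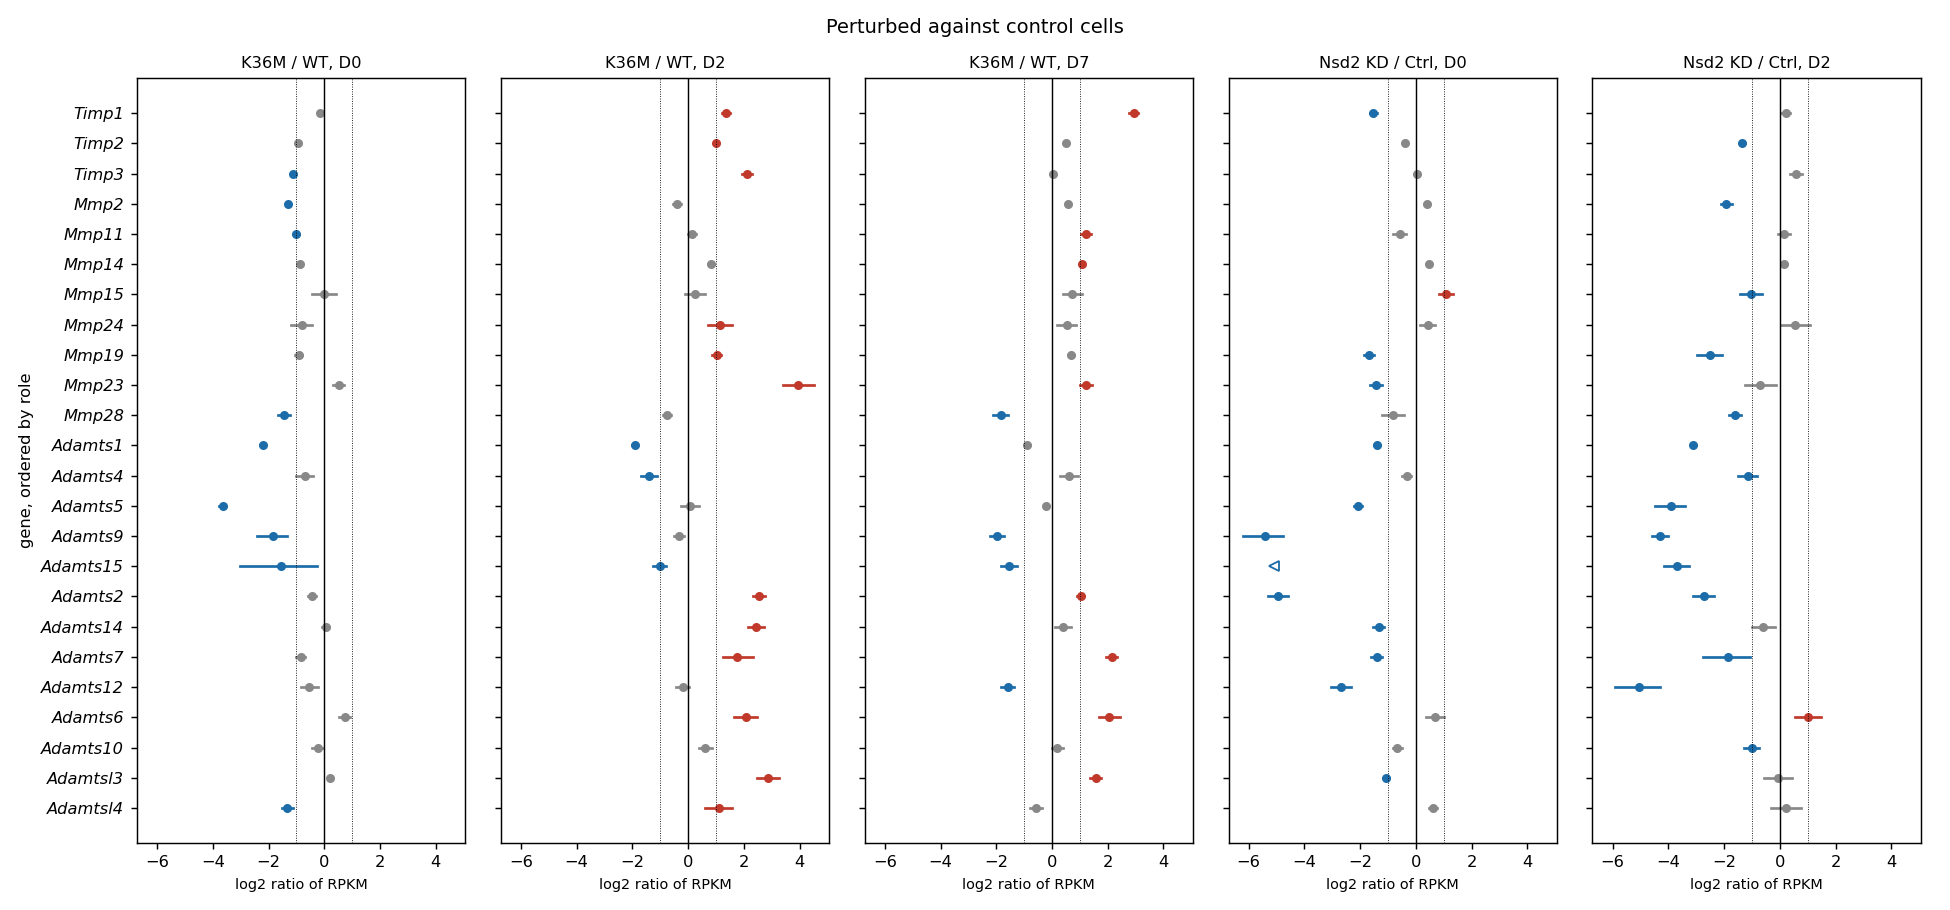
Points give the log2 ratio of RPKM in K36M over WT cells at D0, D2, and D7 and in *Nsd2* KD over Ctrl cells at D0 and D2 for the 24 genes, with 95% counting intervals as lines. Red and blue mark genes called higher and lower, grey marks no call, dotted lines mark 2-fold, and the open arrowhead is the bound for *Adamts15*, which had no read in *Nsd2* KD cells at D0. Red points make up 12 of the 24 in the K36M panel of D2 and 1 of the 24 in the *Nsd2* KD panel of that day.

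Among the inhibitors, *Timp3* had the steepest decrease and *Timp1* the clearest difference between WT and K36M cells. *Timp3* (chr10:85763117-85812251, plus strand) encodes the inhibitor that binds to the matrix and also acts on ADAMTS proteases. Its RPKM was 189 (D0), 3.87 (D2), and 28.6 (D7) in WT and 86.9, 16.9 and 29.1 on these days in K36M cells. It was 32.8 (D0) and 3.19 (D2) in Ctrl and 33.2 and 4.80 in *Nsd2* KD cells. WT cells at D0 stood above every other library, *Timp3* fell in all 4 populations by D2, and the D0 levels of WT and Ctrl cells were far apart. The D0 to D2 log2 ratio was -5.61 (95% counting interval -5.77 to -5.46) in WT, -3.36 in Ctrl, -2.36 in K36M, and -2.79 in *Nsd2* KD cells. At D2 the K36M level was the higher, with a log2 ratio to WT of 2.13 (interval 1.95 to 2.31), and at D7 the 2 were alike (0.02). *Timp3* lies within *Syn3* on the opposite strand and 1733 bases of its exons overlap *Syn3* exons. The sources used here do not say whether reads were counted by strand.

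*Timp1* (chrX:20447292-20451861, plus strand) encodes a secreted inhibitor of most MMPs. Its RPKM was 147 (D0), 42.5 (D2), and 31.4 (D7) in WT, lower on each later day, and 132, 109 and 239.7 in K36M cells, with the highest value at D7. K36M cells differed from WT cells by a log2 ratio of -0.15 at D0, 1.36 (interval 1.22 to 1.49) at D2, and 2.93 (interval 2.77 to 3.09) at D7. The level was 153 (D0) and 35.2 (D2) in Ctrl and 53.0 and 40.8 in *Nsd2* KD cells. WT and Ctrl cells were close to each other on both days, and *Nsd2* KD cells were lower at D0 (-1.53, interval -1.64 to -1.41) and not at D2. *Timp1* lies within *Syn1*, on the opposite strand, without overlap of their exons.

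*Timp2* (chr11:118162383-118217054, minus strand) encodes the inhibitor that links proMMP-2 to MMP-14 at the cell surface, where MMP-2 is activated. Its RPKM was 211 (D0), 37.4 (D2), and 142 (D7) in WT and 111, 75.6 and 202 in K36M cells, lowest at D2 in both. It was 139 (D0) and 48.8 (D2) in Ctrl and 105 and 19.2 in *Nsd2* KD cells, lower at D2 in both. At D2 K36M cells were higher than WT cells (1.02, interval 0.94 to 1.09) and *Nsd2* KD cells lower than Ctrl cells (-1.34, interval -1.44 to -1.25). *Timp2* accounted for 69.5% of the summed Timp RPKM in WT cells at D7, *Timp1* for 15.3%, and *Timp3* for 13.96%. In K36M cells on that day the shares were 42.9%, 50.9%, and 6.17%. *Timp4*, an inhibitor known from heart and adipose tissue, had an RPKM of 2.55 in WT cells at D7 from 48 reads, and in the other 13 libraries it had 0 to 3 reads and at most 0.173. It was at 0 in 6 libraries.

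**Figure D4:**
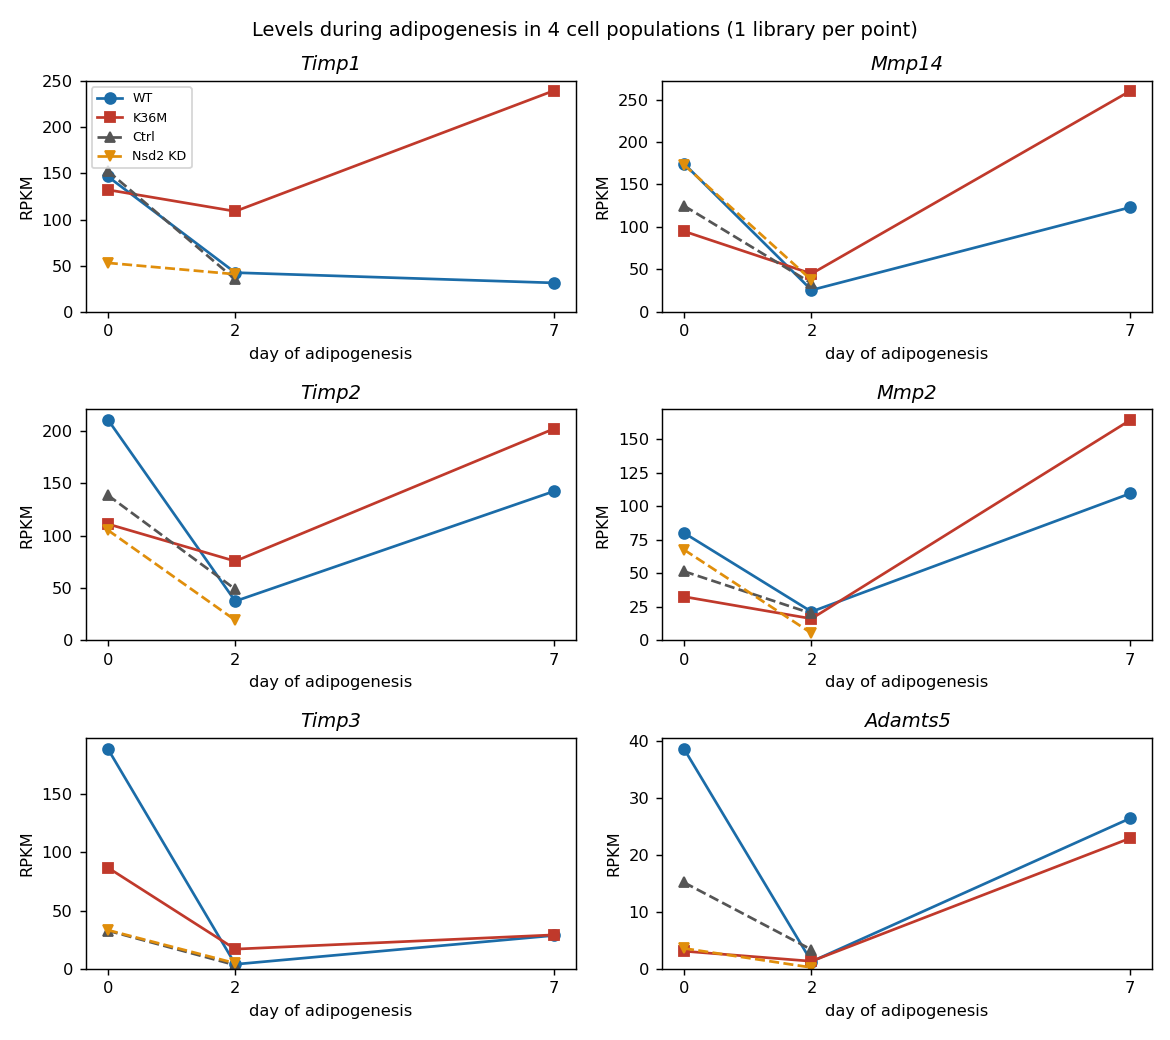
Each panel gives the RPKM of 1 gene (y axis, from 0) by day of adipogenesis (x axis), with 1 library per point, for WT and K36M cells at D0, D2, and D7 and for Ctrl and *Nsd2* KD cells at D0 and D2. All 6 genes are lower at D2 than at D0 in WT and Ctrl cells. At D7 K36M cells are above WT cells for *Timp1*, *Timp2*, *Mmp14*, and *Mmp2*, about level for *Timp3*, and below for *Adamts5*.

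*Mmp14* and *Mmp2*, which work together at the cell surface, were like *Timp2* called lower at D2 in WT, Ctrl, and *Nsd2* KD cells, and unlike *Timp2* also in K36M cells. *Mmp14* (chr14:55050441-55060095, plus strand) encodes the membrane-anchored collagenase MT1-MMP. Its RPKM was 174 (D0), 25.7 (D2), and 123 (D7) in WT and 94.9, 44.9 and 260.0 in K36M cells, lowest at D2 in each. It was 125 (D0) and 33.7 (D2) in Ctrl and 173 and 37.4 in *Nsd2* KD cells. From D2 to D7 the log2 ratio was 2.26 (interval 2.17 to 2.35) in WT and 2.53 (interval 2.45 to 2.62) in K36M cells. *Nsd2* KD cells were within 2-fold of Ctrl cells on both days. *Mmp2* (chr8:95351227-95377316, plus strand), the gene of gelatinase A, had an RPKM of 80.1 (D0), 21.4 (D2), and 109.6 (D7) in WT and 32.6, 16.1 and 164 in K36M cells. Its level was 51.5 (D0) and 20.1 (D2) in Ctrl and 67.6 and 5.32 in *Nsd2* KD cells. The lowest *Mmp2* value of these 10 libraries was that of *Nsd2* KD cells at D2, with a log2 ratio to Ctrl cells of -1.91 (interval -2.10 to -1.73), and K36M cells were called lower than WT cells only at D0 (-1.30, interval -1.38 to -1.22). The other gelatinase gene, *Mmp9*, stayed under an RPKM of 1 in 13 libraries and was at 2.84 in K36M cells at D7, from 109 reads.

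The 2 other membrane-type genes that were compared had low levels. *Mmp15*, the gene of MT2-MMP, had an RPKM of 1.06 (D0), 1.72 (D2), and 2.25 (D7) in WT and 1.06, 2.05 and 3.73 in K36M cells. It was 2.39 (D0) and 2.25 (D2) in Ctrl and 5.08 and 1.10 in *Nsd2* KD cells. The *Nsd2* KD level was the higher of the 2 at D0 (1.09, interval 0.84 to 1.34) and the lower at D2 (-1.03, interval -1.42 to -0.66). *Mmp24*, the gene of MT5-MMP, ranged from 0.657 in Ctrl cells at D2 to 3.44 in *Nsd2* KD cells at D0. *Mmp17*, a GPI-anchored protease, ranged from 0.214 to 2.04, and *Mmp16* and *Mmp25* never reached 1.

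Secreted Mmp genes differed from one another in their course. *Mmp28* (chr11:83254270-83276573, minus strand), the gene of epilysin, was the one Mmp gene that was higher at D2 in all 4 populations. Its RPKM was 12.9 (D0), 33.5 (D2), and 20.1 (D7) in WT and 4.73, 19.6 and 5.63 in K36M cells. It was 3.66 (D0) and 17.4 (D2) in Ctrl and 2.07 and 5.66 in *Nsd2* KD cells. K36M cells came close to WT cells only at D2, and the log2 ratio was -1.44 (interval -1.67 to -1.22) at D0 and -1.84 (interval -2.10 to -1.58) at D7. *Mmp11*, the gene of stromelysin-3, had an RPKM of 41.3 (D0), 22.2 (D2), and 12.7 (D7) in WT cells, lower on each later day, by less than 2-fold at each step and to 30.8% of the D0 level by D7, and 20.3, 24.7 and 29.8 in K36M cells. It was 9.46 (D0) and 8.50 (D2) in Ctrl and 6.36 and 9.40 in *Nsd2* KD cells, so that WT cells at D0 were well above Ctrl cells on that day.

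*Mmp23* (chr4:155024764-155027493, minus strand), which encodes a membrane-bound MMP with an immunoglobulin-like domain, had an RPKM of 13.0 (D0), 1.10 (D2), and 13.9 (D7) in WT and 18.7, 16.8 and 32.7 in K36M cells. The D2 trough of WT cells was missing in K36M cells, and the log2 ratio at D2 was 3.94 (interval 3.39 to 4.53), the highest of the 24 genes on that day. *Mmp23* was 26.6 (D0) and 2.87 (D2) in Ctrl and 9.80 and 1.78 in *Nsd2* KD cells, lower at D2 in both. *Mmp19* RPKM was 22.8 (D0), 8.36 (D2), and 25.9 (D7) in WT and 12.04, 16.9 and 42.0 in K36M cells. It was 17.9 (D0) and 5.12 (D2) in Ctrl and 5.61 and 0.899 in *Nsd2* KD cells. *Nsd2* KD cells had less *Mmp19* on both days, with log2 ratios of -1.67 (interval -1.86 to -1.49) and -2.51 (interval -2.96 to -2.09). On the opposite strand, exons of other genes overlap 1805 bases of *Adamts9*, 789 of *Mmp19*, 637 of *Mmp24*, 465 of *Mmp28*, and 122 of *Adamts7*.

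The ADAMTS proteases that cut versican and other large proteoglycans did not move as one group. *Adamts1* and *Adamts5* lie 55.1 kb apart on chromosome 16, and *Adamts5* fell with the preadipocyte markers while *Adamts1* did not. *Adamts5* (chr16:85858415-85901370, minus strand), an aggrecanase gene, had an RPKM of 38.6 (D0), 1.27 (D2), and 26.4 (D7) in WT and 3.09, 1.33 and 22.9 in K36M cells. It was 15.2 (D0) and 3.36 (D2) in Ctrl and 3.59 and 0.224 in *Nsd2* KD cells. K36M and *Nsd2* KD cells were both low at D0, with log2 ratios to their controls of -3.64 (interval -3.78 to -3.51) and -2.08 (interval -2.22 to -1.94), and at D7 K36M cells had returned to near the WT level (-0.20). *Adamts1* (chr16:85794072-85803358, minus strand) had an RPKM of 58.8 (D0), 72.9 (D2), and 33.2 (D7) in WT and 12.7, 19.2 and 17.9 in K36M cells. Its level was 26.3 (D0) and 116 (D2) in Ctrl and 9.94 and 13.5 in *Nsd2* KD cells. Both perturbed populations lay under their controls in each of these pairs, with log2 ratios of -2.21 (interval -2.30 to -2.12) at D0 and -1.92 (interval -2.01 to -1.83) at D2 for K36M, and of -1.41 (interval -1.52 to -1.29) and -3.10 (interval -3.19 to -3.01) for *Nsd2* KD, and at D7 the K36M ratio of -0.89 was within 2-fold.

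*Adamts9* and *Adamts15* were higher at D2 in all 4 populations. *Adamts9* (chr6:92722693-92893486, minus strand) had an RPKM of 1.12 (D0), 6.14 (D2), and 8.32 (D7) in WT and 0.309, 4.87 and 2.12 in K36M cells. It was 7.37 (D0) and 19.3 (D2) in Ctrl and 0.171 and 0.975 in *Nsd2* KD cells. *Nsd2* KD cells were low on both days, with log2 ratios of -5.43 (interval -6.19 to -4.76) and -4.31 (interval -4.60 to -4.02), whereas Ctrl cells exceeded WT cells on both days. *Adamts15* (chr9:30706740-30730037, minus strand) was under 1 at D0 in all 4 populations, with an RPKM of 0.174 (D0), 6.00 (D2), and 5.69 (D7) in WT and 0.0595, 2.95 and 1.95 in K36M cells. It was 0.990 (D0) and 5.77 (D2) in Ctrl and 0 and 0.449 in *Nsd2* KD cells. The WT log2 ratio from D0 to D2 was 5.11 (95% counting interval 4.50 to 5.79). In *Nsd2* KD cells no read was found at D0, and the D2 level was 15.5-fold that of 3 reads, taken as a floor. That value is not an interval limit. *Adamts15* was the one gene of the 24 that was called lower in K36M than in WT cells in all 5 pairs, and *Mmp28* and *Adamts1* had lower values in all 5 without passing 2-fold in each. *Adamts4*, the other aggrecanase gene, had an RPKM of 3.03 (D0), 7.34 (D2), and 2.84 (D7) in WT and 1.86, 2.80 and 4.35 in K36M cells. It was 8.90 (D0) and 3.35 (D2) in Ctrl and 7.05 and 1.51 in *Nsd2* KD cells, so that it went up in WT and down in Ctrl cells by D2. *Adamts8* and *Adamts20* stayed under an RPKM of 1 in every library, and *Adamts8* lies 20.1 kb from *Adamts15*.

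Among the ADAMTS proteases that remove the N-propeptide of procollagens, *Adamts2* and *Adamts14* were both called lower at D2 in WT and Ctrl cells and not in K36M cells. *Adamts2* (chr11:50415586-50621075, plus strand) had an RPKM of 14.1 (D0), 2.99 (D2), and 20.0 (D7) in WT and 10.4, 17.6 and 40.6 in K36M cells. It was 30.7 (D0) and 6.99 (D2) in Ctrl and 0.997 and 1.06 in *Nsd2* KD cells. *Nsd2* KD cells were thus low on both days (-4.94, interval -5.32 to -4.59 at D0), and K36M cells stood above WT cells at D2 (2.55, interval 2.33 to 2.78). *Adamts14* RPKM was 8.74 (D0), 1.26 (D2), and 2.55 (D7) in WT and 9.07, 6.83 and 3.35 in K36M cells. It was 7.65 (D0) and 1.32 (D2) in Ctrl and 3.03 and 0.873 in *Nsd2* KD cells. WT and K36M cells began alike, and at D2 the log2 ratio was 2.44 (interval 2.15 to 2.74). *Adamts3*, which also belongs to this kind, stayed under an RPKM of 1.

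*Adamts7* and *Adamts12*, whose products cut cartilage oligomeric matrix protein, took different courses. *Adamts7* had an RPKM of 6.94 (D0), 0.431 (D2), and 4.16 (D7) in WT and 3.85, 1.46 and 18.3 in K36M cells. It was 7.61 (D0) and 0.622 (D2) in Ctrl and 2.88 and 0.169 in *Nsd2* KD cells. It was lowest at D2 in every population, and K36M cells at D7 were the highest of all, with a log2 ratio to WT of 2.14 (interval 1.95 to 2.33). *Adamts12* RPKM was 1.89 (D0), 3.41 (D2), and 7.95 (D7) in WT, higher on each later day, and 1.31, 2.98 and 2.64 in K36M cells. Its level was 4.53 (D0) and 4.52 (D2) in Ctrl and 0.709 and 0.136 in *Nsd2* KD cells. *Adamts12* in *Nsd2* KD cells had the lowest ratio of the 24 genes at D2, -5.05 (interval -5.90 to -4.32), and was also called lower at D0 (-2.68, interval -3.04 to -2.33).

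*Adamts6* and *Adamts10*, which are linked to fibrillin microfibrils, differed from each other in K36M cells. *Adamts6* RPKM was 3.08 (D0), 0.760 (D2), and 1.20 (D7) in WT and 5.11, 3.18 and 5.01 in K36M cells. It was 1.56 (D0) and 0.659 (D2) in Ctrl and 2.51 and 1.33 in *Nsd2* KD cells. The *Adamts6* level was higher in K36M than in WT cells at D2 (2.06, interval 1.66 to 2.48) and D7 (2.06, interval 1.70 to 2.44). *Adamts10* was 5.20 (D0), 3.72 (D2), and 7.52 (D7) in WT and 4.41, 5.71 and 8.58 in K36M cells. It was 11.4 (D0) and 4.66 (D2) in Ctrl and 7.14 and 2.33 in *Nsd2* KD cells, and its K36M and WT levels were within 2-fold of each other on each day. Of the ADAMTS-like genes, *Adamtsl3*, the gene of punctin-2, had an RPKM of 17.9 (D0), 0.496 (D2), and 3.31 (D7) in WT and 20.9, 3.60 and 9.77 in K36M cells. It was 13.4 (D0) and 0.518 (D2) in Ctrl and 6.34 and 0.497 in *Nsd2* KD cells. At D2 it was at 2.76% of its D0 level in WT cells and at 17.3% in K36M cells. *Adamtsl4*, which encodes a fibrillin-binding protein, was 9.03 (D0), 0.882 (D2), and 8.63 (D7) in WT and 3.62, 1.88 and 5.82 in K36M cells. It was 8.77 (D0) and 0.785 (D2) in Ctrl and 13.5 and 0.910 in *Nsd2* KD cells, lower at D2 than at D0 in each population.

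In cells with ectopic PPARγ, Rosi came with 5 lower calls in WT cells and 10 in K36M cells. In WT cells 3 of the 24 genes were higher with Rosi and 5 lower, against 9.32% and 4.35% of all genes tested, with medians of -0.15 for the 24 and 0.06 for all genes. In K36M cells 2 were higher and 10 lower, against 7.18% and 7.69%, with medians of -0.95 and -0.03. *Mmp11* and *Mmp28* were higher in both, and *Timp1* and *Adamtsl3* were lower in both (40% of the 5 and 20.0% of the 10). All 5 genes lower with Rosi in WT cells were among the 15 lower from D0 to D2 in WT cells (33.3%), a comparison with no library in common. Those 15 are 62.5% of the 24 genes, so much overlap arises in any case, and it was not tested. The Rosi response in K36M cells was below that in WT cells, with an interval of the difference under 0, for 16 genes and above it for 7, with a median difference of -0.88. These differences were not computed for all genes, whose share of lower calls was also the larger in K36M cells. Whether the 24 genes stand out in them was not tested. The adipocyte marker sum was 287 (DMSO) and 3764 (Rosi) in WT, and 202 and 1474 in K36M cells. The preadipocyte marker sum went from 3656 to 1814 and from 2988 to 1319.

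*Mmp11* RPKM was 9.17 (DMSO) and 33.5 (Rosi) in WT and 6.34 and 35.0 in K36M cells, with log2 ratios of 1.87 (interval 1.71 to 2.03) and 2.47 (interval 2.29 to 2.65). *Mmp11* was not called higher from D0 to D2 in any population. *Mmp28* was 6.00 (DMSO) and 23.2 (Rosi) in WT and 2.26 and 10.6 in K36M cells, with log2 ratios of 1.95 (interval 1.76 to 2.15) and 2.23 (interval 1.93 to 2.54). *Adamts15* was 0.302 (DMSO) and 1.25 (Rosi) in WT and 0.0485 and 0.0533 in K36M cells, the K36M values resting on 7 and 4 reads.

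Among the inhibitors, *Timp1* was 119 (DMSO) and 28.8 (Rosi) in WT and 125 and 53.9 in K36M cells. *Timp3* was 48.9 (DMSO) and 12.6 (Rosi) in WT and 37.4 and 32.7 in K36M cells. *Timp1* was lower with Rosi in both, and *Timp3* in WT cells only, where its log2 ratio was -1.95 (interval -2.05 to -1.85) against -0.20 (interval -0.27 to -0.12) in K36M cells. *Timp2* was 86.4 (DMSO) and 51.6 (Rosi) in WT and 63.3 and 28.6 in K36M cells. The *Timp2* level fell past 2-fold in K36M cells only, with log2 ratios of -0.74 in WT and -1.14 in K36M cells. The Timp sum was 254 (DMSO) and 93.0 (Rosi) in WT, and the Mmp sum was 156 and 198. In K36M cells the Timp sums were 226 and 115, and the Mmp sums were 179.8 and 162.

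Proteases lower with Rosi in K36M cells included *Mmp2*, which was 29.4 (DMSO) and 23.3 (Rosi) in WT and 29.2 and 11.8 in K36M cells, and *Mmp24*. The *Mmp24* level was 2.60 (DMSO) and 2.23 (Rosi) in WT and 3.00 and 0.991 in K36M cells. *Adamts12*, at 2.42 (DMSO) and 3.34 (Rosi) in WT and 3.07 and 0.621 in K36M cells, had a log2 ratio of 0.46 in WT and -2.30 (interval -2.76 to -1.88) in K36M cells, the lowest Rosi ratio among the 24 genes. *Adamts7* was 3.56 (DMSO) and 3.62 (Rosi) in WT and 2.69 and 1.12 in K36M cells. *Adamtsl4* was 8.39 (DMSO) and 5.91 (Rosi) in WT and 7.18 and 2.74 in K36M cells. For these genes WT cells stayed within 2-fold and K36M cells did not. *Adamts4* was 4.97 (DMSO) and 3.67 (Rosi) in WT and 11.1 and 4.41 in K36M cells. *Adamts2* was 2.45 (DMSO) and 2.02 (Rosi) in WT and 14.2 and 6.19 in K36M cells. In both of these the K36M level with DMSO was above the WT level, by log2 ratios of 1.16 (interval 0.99 to 1.33) and 2.53 (interval 2.32 to 2.76).

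Lower with Rosi in WT cells and within 2-fold in K36M cells were *Adamts5*, at 15.5 (DMSO) and 6.12 (Rosi) in WT and 3.27 and 1.71 in K36M cells, and *Adamts14*. The *Adamts14* level was 6.66 (DMSO) and 2.33 (Rosi) in WT and 7.83 and 7.34 in K36M cells. *Adamtsl3* was 2.57 (DMSO) and 0.780 (Rosi) in WT and 8.11 and 4.03 in K36M cells, lower with Rosi in both. *Adamts5* was low in K36M cells already with DMSO (-2.25, interval -2.37 to -2.12), as it was at D0 of the first experiment. *Mmp14* was 83.4 (DMSO) and 78.5 (Rosi) in WT and 84.5 and 50.9 in K36M cells, within 2-fold in both.

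K36M and WT cells of this experiment were also compared directly. With DMSO 5 genes were higher and 3 lower in K36M cells, against 3.98% and 2.86% of all genes tested. Medians were 0.005 for the 24 genes and -0.02 for all genes. At D0 of the first experiment the median of the 24 was -0.86. With Rosi 5 were higher and 9 lower, against 5.58% and 11.0%, with a median of -0.69 for the 24 genes and -0.12 for all genes. The 5 genes higher in K36M cells with Rosi, *Mmp23*, *Adamtsl3*, *Adamts14*, *Adamts2*, and *Timp3*, were all among the 12 higher at D2 (41.7%). With 12 of the 24 genes higher at D2, overlap arises in any case, and it was not tested. *Adamts7*, *Adamtsl4*, *Mmp19*, and *Mmp24* were called in opposite directions, higher in K36M cells at D2 and lower with Rosi. Of the 9 genes lower with Rosi, only *Adamts15* was also lower at D2. *Mmp23* was 5.77 (DMSO) and 8.01 (Rosi) in WT and 31.9 and 34.4 in K36M cells. Its level in K36M cells was about the same with and without Rosi and above that of WT cells in both, with log2 ratios of 2.47 (interval 2.24 to 2.70) and 2.10 (interval 1.87 to 2.35). *Mmp19* was 13.6 (DMSO) and 20.0 (Rosi) in WT and 11.7 and 8.66 in K36M cells. *Mmp15* was 4.73 (DMSO) and 8.31 (Rosi) in WT and 7.29 and 4.93 in K36M cells. *Adamts10* was 7.30 (DMSO) and 6.86 (Rosi) in WT and 6.05 and 3.11 in K36M cells. In these K36M cells had the lower value with Rosi, *Mmp15* having been the higher with DMSO, and K36M cells with Rosi were called lower than WT cells for *Mmp19* (-1.21) and *Adamts10* (-1.14). The remaining genes, *Adamts1*, *Adamts6*, and *Adamts9*, did not pass 2-fold with Rosi in either population. *Adamts1* was 20.4 (DMSO) and 16.3 (Rosi) in WT and 10.5 and 12.2 in K36M cells. *Adamts6* was 1.10 (DMSO) and 1.33 (Rosi) in WT and 2.49 and 1.26 in K36M cells. *Adamts9* was 0.366 (DMSO) and 0.721 (Rosi) in WT and 0.517 and 0.471 in K36M cells.

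**Figure D5:**
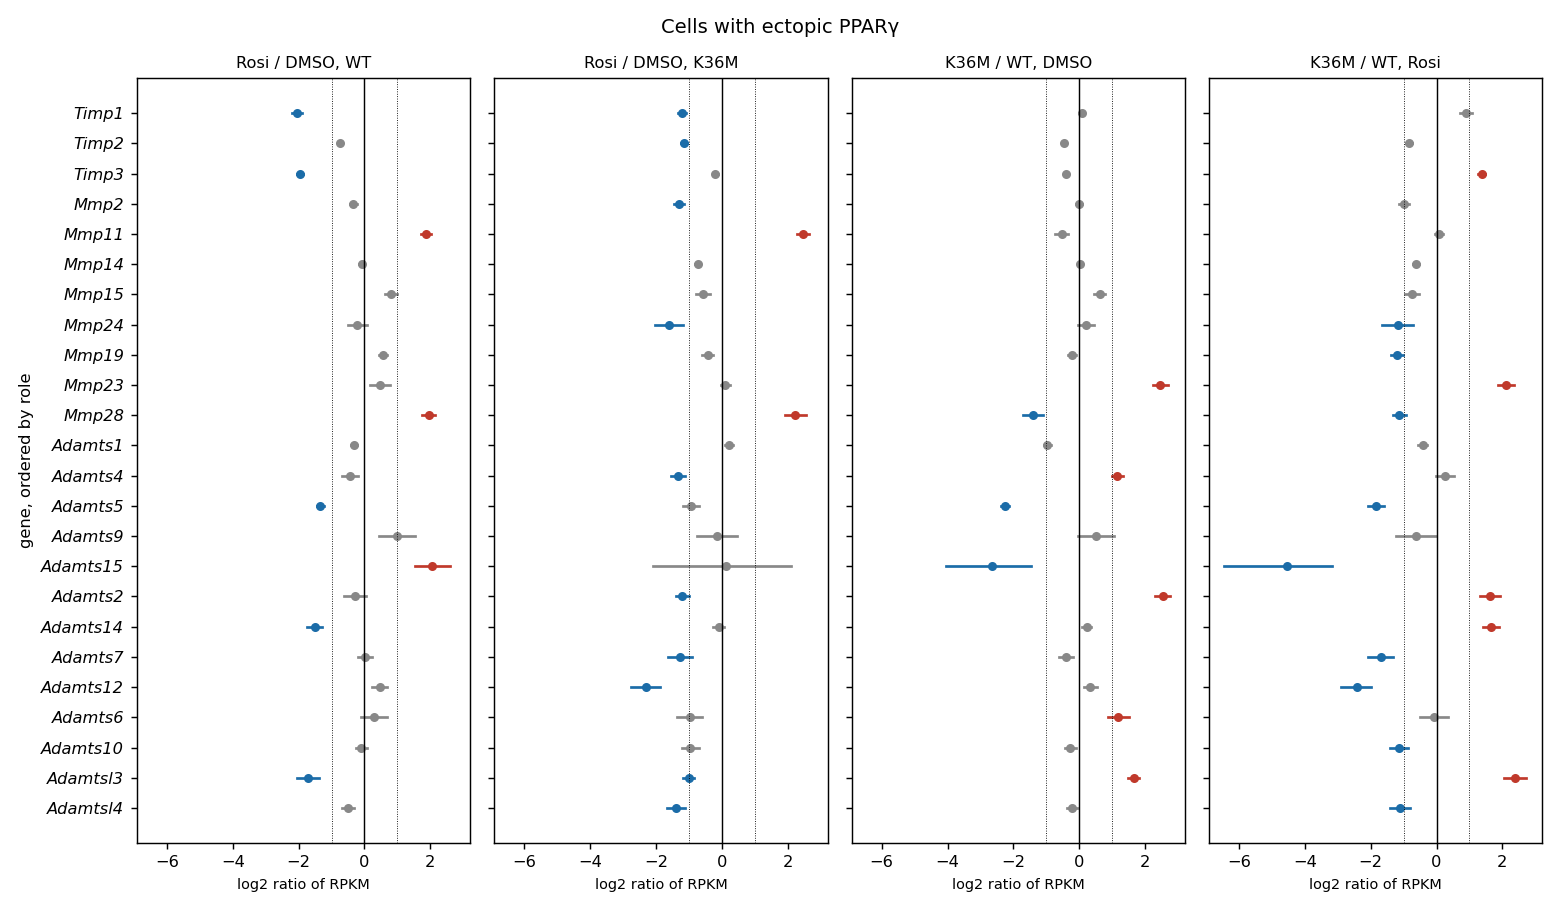
Points give, for the 24 genes in cells with ectopic PPARγ, the log2 ratio of RPKM with Rosi over DMSO in WT and in K36M cells and that of K36M over WT cells with DMSO and with Rosi, with 95% counting intervals as lines. Red and blue mark genes called higher and lower, grey marks no call, and dotted lines mark 2-fold. *Mmp11* and *Mmp28* are red in both Rosi panels, and blue points number 5 in WT and 10 in K36M cells.

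Among the weakly expressed genes, *Adamts19* and *Adamtsl2* reached an RPKM of 1 only at D2. *Adamts19* had an RPKM of 2.24 in K36M cells at D2 and 0.914 in Ctrl cells at D2, from 131 and 86 reads, and at most 0.101 elsewhere, WT cells at D2 with 9 reads included. *Adamtsl2*, which encodes a protein that regulates TGF-β availability, was 0.0144 (D0), 1.16 (D2), and 0.185 (D7) in WT and 0.186, 1.99 and 0.758 in K36M cells. It was 0.0312 (D0) and 0.444 (D2) in Ctrl and 0.301 and 0.175 in *Nsd2* KD cells. Both were thus at their highest at D2 in the WT, K36M, and Ctrl populations, and *Adamtsl2* in *Nsd2* KD cells was not. The 18 genes that never reached an RPKM of 1 peaked between 0.0482 and 0.868. They were *Mmp1a*, *Mmp1b*, *Mmp7*, *Mmp8*, *Mmp10*, *Mmp12*, *Mmp16*, *Mmp20*, *Mmp21*, *Mmp25*, *Adamts3*, *Adamts8*, *Adamts13*, *Adamts16*, *Adamts17*, *Adamts18*, *Adamts20*, and *Adamtsl1*. None was at 0 in every library. In a transcript of 1 kb, 3 reads correspond to an RPKM of 0.123 to 0.246 depending on the library.

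Genes that activate or bind these proteases moved in part with them. Of 20 such genes 15 were compared, and from D0 to D2 in WT cells 2 were higher and 8 lower, against 8.47% and 16.1% of all genes. *Plau*, the gene of urokinase, which starts the plasmin cascade that activates MMPs, had an RPKM of 7.50 at D0 and 0.313 at D2 in WT cells (log2 ratio -4.58). *Furin*, which activates MT-MMPs and ADAMTS proenzymes, stayed between 15.8 and 32.7 in the 14 libraries, and *Reck*, a membrane-anchored inhibitor gene, was 4.62 and 1.92 in WT cells at D0 and D2 (-1.26). K36M cells had 4 of the 15 higher and 2 lower than WT cells at D2, against 10.3% and 3.36%, and *Nsd2* KD cells had 4 higher and 3 lower than Ctrl cells, against 4.24% and 9.74%.

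Among 18 compared matrix proteins outside the collagens, which these proteases cut, 11 were lower and 3 higher at D2 than at D0 in WT cells, against 16.1% and 8.47% of all genes. *Vcan*, the gene of versican, was one of the 3, with an RPKM of 196, 487, and 206 at D0, D2, and D7 in WT and 32.5, 340.2, and 97.3 in K36M cells. It was 81.1 and 202 in Ctrl cells and 108 and 186 in *Nsd2* KD cells. *Vcan* was thus at its highest at D2, the day on which *Adamts9* and *Adamts15* were also higher than at D0 in all 4 populations. *Thbs1*, the gene of thrombospondin-1, was 366 at D0 and 11.3 at D2 in WT cells (log2 ratio -5.01). Of 8 compared ADAM genes, which encode membrane-bound sheddases, 1 was higher and 2 lower at D2 in WT cells, against the same shares. In *Nsd2* KD cells at D0, 5 of the 8 were lower than in Ctrl cells and 1 higher, against 10.5% and 5.11% of all genes. *Adam9* was 52.1 in Ctrl and 13.3 in *Nsd2* KD cells on that day (log2 ratio -1.97), and *Adam10* was 29.6 and 12.3 (-1.27).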

How the data were processed

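The authors deposited RPKM values (read numbers corrected for transcript length and sequencing depth) for 29082 RefSeq transcripts in each of 14 RNA-Seq libraries, 1 per condition. The submitters' processing notes name CASAVA 1.8.2 and mm9, and the program that counted reads and any use of strand are not given in the sources used here. Other samples of the series were not analysed here. Of the transcripts, 28432 (97.8%) were matched to a symbol, and 1 transcript stood for each gene, chosen by its mean RPKM (the highest). Whole reads were recovered from the RPKM steps for 26945 of the 26946 transcripts that were detected in 2 or more libraries, from which depths of 12213559 to 24365867 mapped reads per library followed. The recovery and the calling of ratios were tested on simulated data.

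Genes with a mean RPKM of at least 1 (11899 of 23109) were compared as ratios, and a gene was called when the ratio passed 2-fold and its 95% Clopper-Pearson counting interval excluded 1. Intervals of differences between 2 log2 ratios used a normal approximation of counting error. With 1 library per condition there was no test across conditions and no count test was run. The rule for members uses names alone, but this gene family, the role groups, and the other lists were chosen with earlier results of these data known. Members that reached an RPKM of 5 were named with the values of each experiment in which they were called, those that peaked from 1 to 5 with their range, and the rest by name only. The comparison of Ctrl with WT cells, the TATA box search, and a few values outside this rule were added after the values were seen. Promoters came from RefSeq (GRCm38.p6), and 34 of 49 members had an entry. Protein motifs were not analysed here. Alternatives were other filters, a pseudocount of 1, rescaling to the median ratio, summed transcripts, and no interval. Python 3.11.15, numpy 2.4.6, scipy 1.17.1, pandas 2.3.3, and matplotlib 3.10.9 were used.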

Additional observations from a re-analysis of the deposited data

Results flagged for a closer look

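*Adamts14* moved in opposite directions from D2 to D7 in the 2 populations, which is why it is listed. Its RPKM went from 1.26 to 2.55 in WT cells (log2 ratio 1.01) and from 6.83 to 3.35 in K36M cells (log2 ratio -1.03). The difference of the 2 log2 ratios, K36M minus WT, was -2.04, with a 95% counting interval of -2.45 to -1.64. The interval covers counting error only, and with 1 library per point the difference between the populations was not tested. Both ratios lie just past 2-fold.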

How the results depend on the processing

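The number of the 24 genes called in each of 17 comparisons was recomputed under 6 settings. It stayed within 1.5 times the reported count in all 17 comparisons when an RPKM of at least 1 in either library replaced the mean filter, when each library was rescaled to a median ratio of 1, when the transcripts of a gene were summed, and when the counting interval was dropped. With no filter, which adds weakly expressed genes, the counts became 18 in place of 10 for K36M D0 to D2, 20 in place of 13 for K36M D2 to D7, 16 in place of 9 for K36M against WT at D0, 20 in place of 12 at D7, 15 in place of 8 with PPARγ and DMSO, and 12 in place of 6 for Ctrl against WT at D2. A pseudocount of 1, which draws ratios of low genes towards 1, gave 6 in place of 10 for K36M D0 to D2, 9 in place of 15 for K36M against WT at D2, and 8 in place of 13 and 3 in place of 6 for Ctrl against WT at D0 and D2. Rescaling moved the split of higher and lower calls from 8 and 4 to 6 and 5 for K36M against WT at D7, and from 4 and 2 to 4 and 1 for Ctrl against WT at D2. Of the 222 called ratios recomputed, 46 fell under 2-fold with the pseudocount, 13 with the rescaling, and 0 with the summed transcripts. None changed sign under the rescaling or the summed transcripts, and a pseudocount cannot change a sign. Summing could change little, as the 49 genes had 55 transcripts. No paired analysis was possible because each condition had 1 library and the labels carry no replicate numbers, and for the same reason no library could be left out. Depth limits the genes under an RPKM of about 1, whose ratios often rest on fewer than 100 reads.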
